A study of Glycine max with 42 samples.

Results

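Control leaves of the soybean cultivar Williams 82 were compared at 54 and 45 days after planting. The comparison takes in 6 of the series' 42 RNA sequencing libraries, the 3 control libraries of each day, chosen by their line, treatment and time labels. The series holds 14 groups of 3 libraries, all from trifoliate leaves, with 27 libraries of Williams 82 and 15 of line T295H. Control plants stand beside plants whose pods were removed (depodded), sampled at the same days, and the course began with an initial group at flowering, day 38. Later controls were taken at days 64 and 76. T295H supplied sterile plants and controls, and its controls of days 35 and 63 are compared with each other below. The depodded libraries titled with the sampling numbers 4 and 5 carry time labels that run against those numbers (76 and 64 days), so they are called by their title number. The labels give no growth stage for days 45 and 54, and plant age cannot be told apart from whatever else differed between the 2 sampling days.

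A soybean leaf exports sugars and amino compounds made by photosynthesis and nitrogen assimilation. After flowering, pods and then seeds become the main importers, or sinks, and leaves later take apart their own proteins and pass the nitrogen on. Removing the pods takes away that sink while the leaves remain, and depodded soybean is known for storing starch and vegetative storage proteins in its leaves.

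Gene IDs in the files carry no names, and 0 of 39557 IDs matched the 59048 genes of the reference table used here, so no gene below is given a function and the leaf label could not be checked against marker genes. Values are normalised counts, that is gene counts divided by a factor per library. The 6 libraries held 8415453 to 13166094 counts, and their 10 most abundant genes took 6.0 to 7.7% of them. The 29208 genes whose mean over the 27 Williams 82 libraries reached 10 were tested with limma on log2(normalised count + 1) and Benjamini-Hochberg adjustment, and a gene is called when its adjusted p is under 0.05. Whether the 3 libraries of a group are from different plants is not in the labels. The p-values therefore describe only the spread between libraries within groups, pooled over all groups of a line. That spread may be technical. Across genes, log2 values of libraries of the same day correlated with Pearson's r of 0.922 to 0.960 at day 45 and 0.921 to 0.944 at day 54, and libraries of different days with 0.805 to 0.851.

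Over the 9 days from day 45 to day 54, the leaf RNA of control plants changed in 7985 genes, 27.3% of those tested. Transcripts of 3636 genes (12.4%) rose and those of 4349 genes (14.9%) fell. Without adjustment, 11366 genes had a p under 0.05, where 5% of the tested genes is 1460. Each direction can also be read without a model: in 6563 genes (22.5%) all 3 libraries of day 54 were above all 3 of day 45, and in 6899 (23.6%) all were below. Of the called genes, 3509 of the 3636 that rose and 4215 of the 4349 that fell showed no overlap between the days. The calls come from the same libraries, so these high shares follow largely from the choice of genes. The median log2 change over all tested genes was 0.02. In bulk leaf samples, fewer cells of a type and less RNA per cell cannot be told apart.

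**Figure D1:**
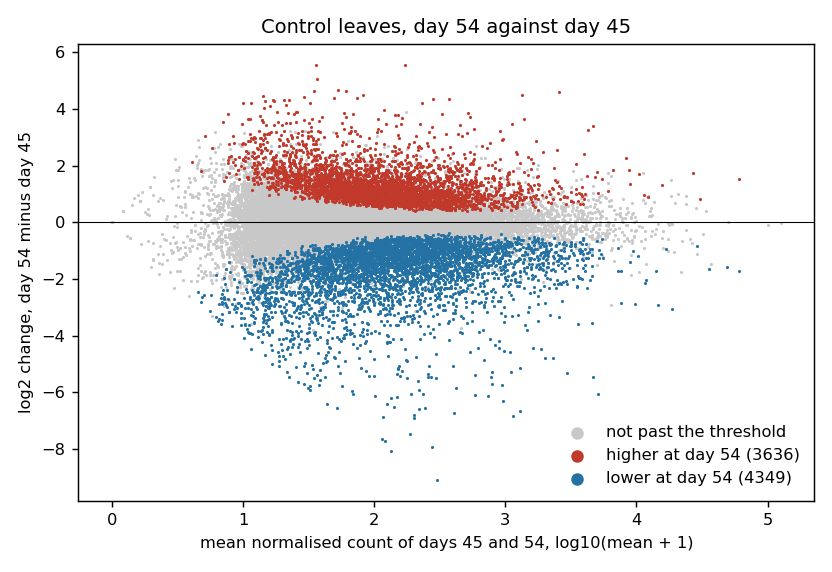
Each point is a tested gene; the horizontal axis is its mean normalised count over the control libraries of days 45 and 54 as log10(mean + 1), and the vertical axis its log2 change from day 45 to day 54. The 4349 genes called lower (blue) reach a log2 change of -9.09, and the 3636 called higher (red) reach 5.56.

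The fitted falls were larger than the rises. The median log2 change of the genes that rose was 1.17, with quartiles of 0.88 and 1.6, and that of the genes that fell was -1.44, with quartiles of 1.02 and 2.11 in size. A change of at least 4-fold was fitted for 480 of the risen genes (13.2%) and 1221 of the fallen genes (28.1%). At 16-fold or more there were 27 risen and 181 fallen genes, and at 64-fold or more 0 risen and 28 fallen. Some of these folds are against a group without a single count. With such genes set to the bound that the floor allows (6 counts, or 3 pairs of counts, per library), the medians were again 1.17 and -1.44, and 24 risen and 166 fallen genes stood at 16-fold or more. The smallest change called was 0.39 in either direction.

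Highly expressed genes contributed more falls than rises. Among the 15642 tested genes with a mean of 10 to 100, 10.5% rose and 10.7% fell. Between 100 and 1000 the shares were 15.4% and 19.3% of 12044 genes. Between 1000 and 10000, 140 genes (9.64%) rose and 333 (22.9%) fell, and of the 70 genes at 10000 or more, 6 rose and 11 fell. The median standard error of a log2 change was 0.47 in the lowest class and 0.27 in the next, so the classes differ in what the test can detect.

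**Figure D2:**
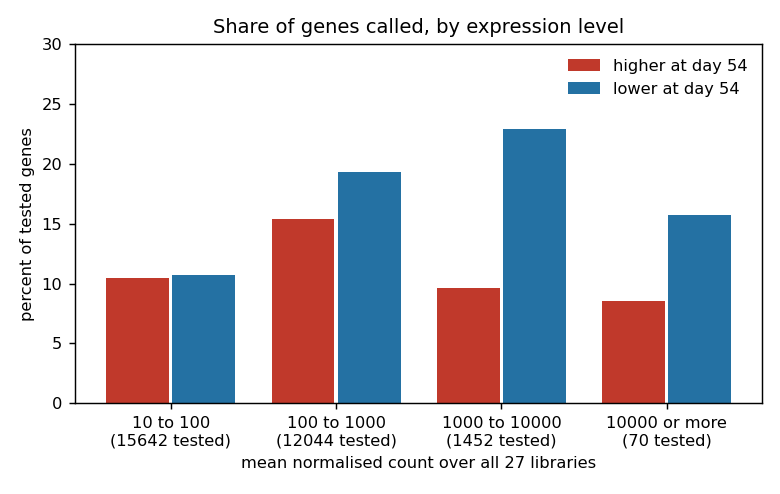
Bars give the percent of tested genes called higher (red) or lower (blue) at day 54 in 4 classes of mean normalised count over the 27 Williams 82 libraries. The shares are 10.5% and 10.7% in the lowest class and 9.64% and 22.9% between 1000 and 10000.

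The most abundant transcripts turned over in part. Of the 10 most abundant genes at day 45, which held 6.8% of the normalised total, 4 were called lower and 0 higher at day 54. Of the 10 most abundant at day 54, which held 6.65%, 3 had risen and 0 had fallen, and the lists shared 3 genes. Among the 100 most abundant, 67 were shared, and among the 1000 most abundant, 728 were shared. Of the 1000 most abundant at day 45, 306 fell and 42 rose. A list taken at its highest day leans toward falls by its choice: of the 1000 most abundant at day 54, 144 had risen and 109 had fallen.

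Some transcripts left the range of detection. Of the 4349 genes that fell, 32 (0.736%) had no count in any library of day 54, and their median normalised count at day 45 was 35.5, with 13 of them at 50 or more, 5 at 100 or more and the highest at 600. In the other direction, 7 risen genes had no count at day 45, and their means at day 54 had a median of 13.3 and a maximum of 26.4. A count of 0 limits a level only to the floor, 3.8 to 6.69 normalised counts per library. Outside the 6 libraries, all 32 genes had counts in the initial group and in depodded leaves of day 45. Counts in other groups follow in part from the filter, which is on the mean over all Williams 82 libraries. A gene without counts at day 54 and low at day 45 could pass it only with counts elsewhere. Genes seen only at day 45 or only at day 54 were tested only if high there. Of the 32, 13 had no count in any depodded library of day 54, 17 had none in any control library of day 64, and 13 had none at day 76. Among the 13 genes at 50 or more, the numbers were 11, 8 and 3.

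Glyma.07G212400 had the largest change on the log2(value + 1) scale of the genes called lower whose day 45 mean reached 50 and whose days did not overlap. Its normalised counts in the 3 control libraries of day 45 were 905, 292 and 603, and it had no count in the 3 libraries of day 54. Day 45 replicate 2 was the lowest of the first group, and the days were far from overlapping. The level fell at least 127-fold on the means (log2 change -9.09, SE 0.72, limma adjusted p 3.8e-08), and leaving out any of the 6 libraries gave bounds from 94.8 to 160. The initial leaves held 43.7, 156 and 71.6, below every day 45 library. It stayed near 0 afterwards, with 0, 0 and 1.42 in controls of day 64 and 8.67, 11.2 and 0 at day 76. In depodded plants it stood at 207, 231 and 517 at day 45, and no count was found in any depodded library of day 54 or of the title numbers 4 and 5.

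Glyma.12G087200 had a like course. It stood at 303, 255 and 237 in control libraries of day 45 and had no count at day 54. These 3 libraries of day 45 lay close together, and none overlapped with day 54. The fall was at least 56.1-fold (log2 change -8.05, SE 0.7, limma adjusted p 1.1e-07), and at least 51.2-fold to 61.8-fold with any library left out. With 5 added in place of 1 its log2 change was -5.75. The initial libraries held 7.94, 44.2 and 26.8, all below day 45. Depodded leaves held 75.7, 401 and 292 at day 45 and no count at day 54. Controls of day 64 held 0, 1.98 and 2.85, and those of day 76 held 3.47, 3.21 and 0, all under the floor.

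Glyma.09G040500, taken by the same rule from the genes called higher, had 0, 0 and 2.23 normalised counts at day 45 and 61.4, 79.5 and 67.2 at day 54. The 3 libraries of day 54 were alike, and the day 45 group rests on 2 counts in all, both in replicate 3. The log2 change was 5.56 (SE 0.84, limma adjusted p 5.5e-05), and the ratio of means was 93.2 with a 95% counting interval (exact, on pairs of counts) of 16.5 to 3710. Without day 45 replicate 1 or 2 the ratio was 62.2, and without day 45 replicate 3 the rise was at least 12.3-fold. Initial leaves held 3.97, 15.6 and 5.96. Later controls held 86.6, 35.7 and 19.9 at day 64 and 875, 120 and 125 at day 76, where replicate 1 stood far above the others. Depodded leaves went from 2.29, 0 and 7.68 at day 45 to 33.9, 36.8 and 15.7 at day 54, a log2 change of 3.2 (adjusted p 0.0052).

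Glyma.18G127200 was the other gene with the largest rise. In controls it went from 1.97, 3.59 and 8.93 at day 45 to 186, 105 and 716 at day 54, with replicate 3 highest on both days. The log2 change was 5.56 (SE 1.13, limma adjusted p 0.00094) and the ratio of means 69.6 (95% counting interval 33.6 to 174). It was 30.1 without day 54 replicate 3 and 121 without day 45 replicate 3. It was higher still in later controls, at 1980, 1300 and 805 on day 64 and 2830, 1620 and 3920 on day 76. Depodded leaves held 9.18, 261 and 2.56 at day 45 and 4.84, 7.36 and 21.6 at day 54, groups that overlap (log2 change -1.03, adjusted p 0.5). The depodded mean of day 45 rests on replicate 2: the mean was 8.05-fold lower at day 54 with it and 1.92-fold higher without it. The difference between the control and the depodded change was 6.59 on the log2 scale (SE 1.6) with an adjusted p of 0.23, so it did not pass the threshold over all genes. In T295H controls the gene went from 378, 231 and 251 at day 35 to 22500, 23600 and 19700 at day 63.

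**Figure D3:**
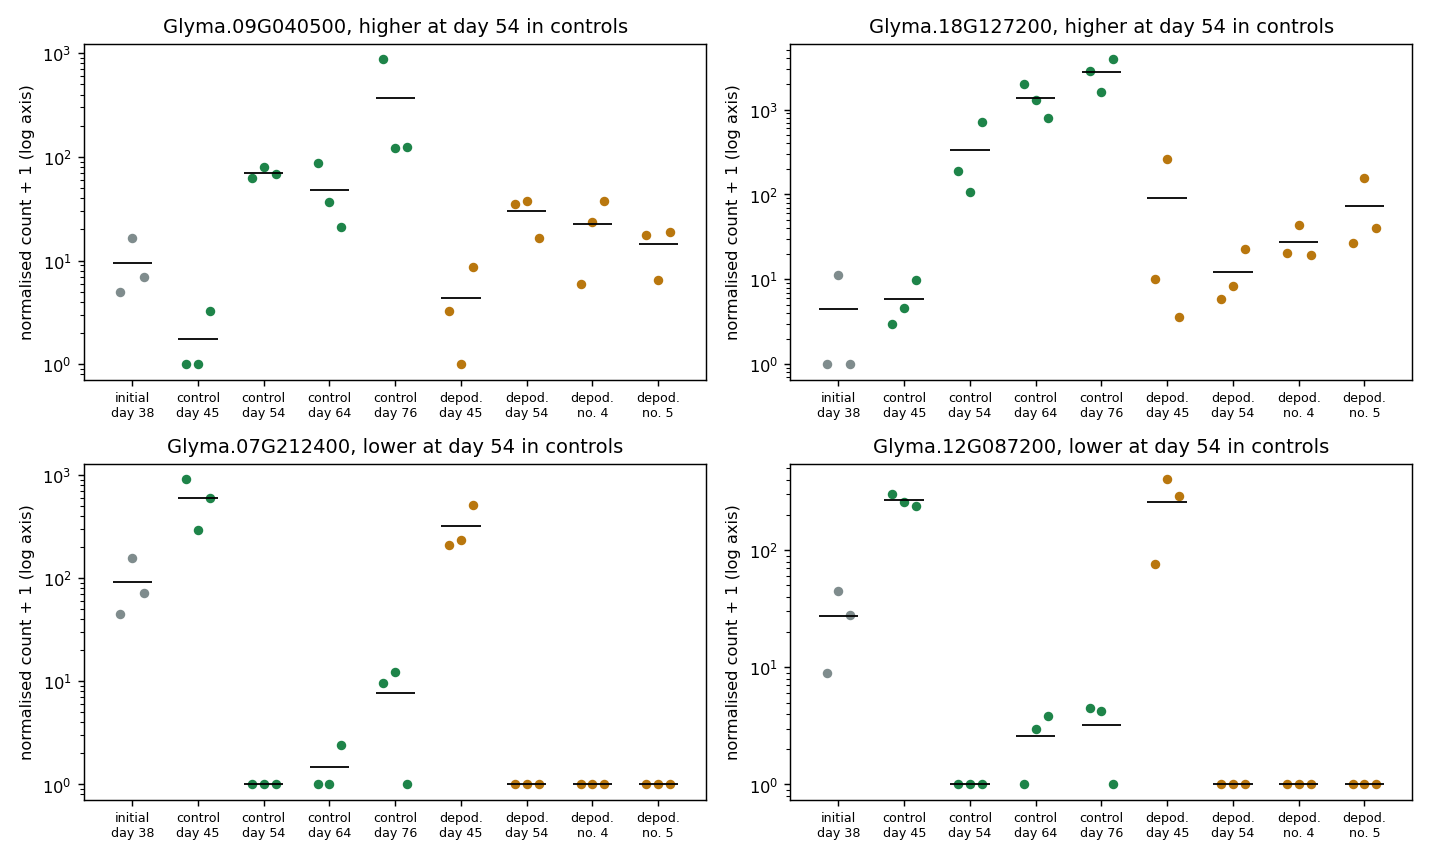
Normalised counts + 1 on a log axis for the 2 genes with the largest rise and the 2 with the largest fall on the log2(value + 1) scale, on which the fitted change of a gene without counts, and so its place, depends on the added 1; each point is a library (initial grey, control green, depodded orange) and each bar the mean of 3 libraries + 1. Glyma.07G212400 and Glyma.12G087200 are at 0 counts in all control and depodded libraries of day 54, and Glyma.18G127200 spans 105 to 716 in control and 4.84 to 21.6 in depodded libraries of that day.

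The same interval was sampled in plants whose pods had been removed, in a comparison that shares no library with the controls. Both comparisons take the filter and each gene's spread from the same fit of 27 libraries. A gene with a small spread is thus called more easily in both, and shared calls follow in part from that. In depodded leaves 10632 genes (36.4%) were called between days 45 and 54, of which 5182 (17.7%) were higher and 5450 (18.7%) lower. Of the 3636 genes that rose in controls, 2352 (64.7%) also rose in depodded leaves, and 3 fell. Of the 4349 that fell in controls, 3078 (70.8%) also fell in depodded leaves, and 5 rose. These shared genes are 45.4% of the depodded rises and 56.5% of the depodded falls. The genes that rose in controls had a median log2 change of 1.01 in depodded leaves and those that fell a median of -1.28, against 0.03 over all tested genes, and 95.1% and 94.8% of them kept their sign. Without depodded replicate 2 of day 45, which correlated less with the other libraries of its group (r of 0.84 and 0.849, against 0.922 between those), 8697 genes were called in depodded leaves, with 2229 rises and 2961 falls in common with controls.

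**Figure D4:**
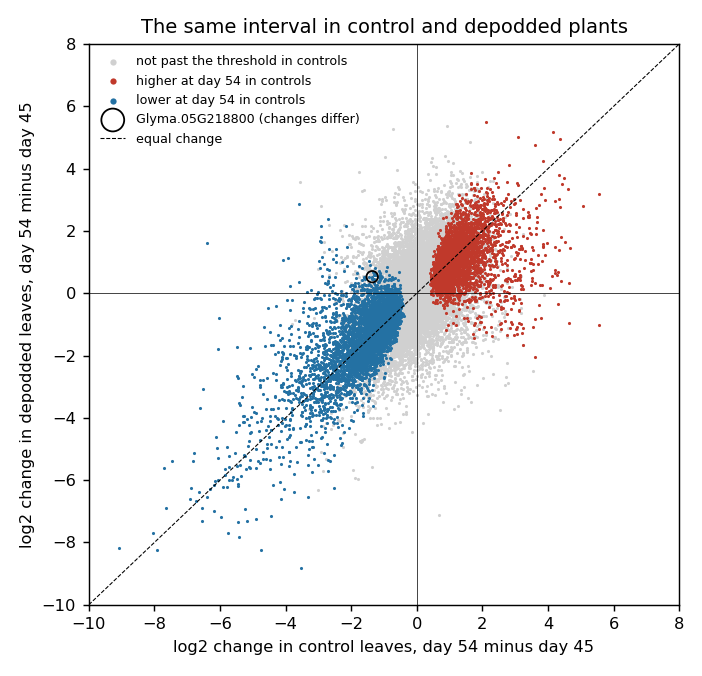
Each point is a tested gene, with its log2 change from day 45 to day 54 in control leaves (horizontal) and in depodded leaves (vertical); colours mark the calls in controls, the dashed line equal change, and the circle the gene whose changes differed. Points scatter around the dashed line, with quartiles of -0.5 and 0.45 for control minus depodded change over all tested genes. Pearson's r was 0.682 and Spearman's rho 0.659, which do not measure equality of the changes.

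Across the 29208 genes the changes in control and depodded leaves had a Pearson's r of 0.682 and a rho of 0.659 (Spearman). This is a description, as genes are not independent replicates and all 12 libraries were scaled in the same table. Calls in 1 treatment only (2547 genes in controls, 5194 in depodded leaves) do not show that the change differed. The difference itself passed the threshold in 1 gene, 0.00342% of those tested, while 3623 genes had an unadjusted p under 0.05. DESeq2 on the recovered counts called 193 genes for the same difference, and edgeR called 1. The intervals are wide: the median 95% interval of the difference reached 1.09 on the log2 scale to either side over all genes, 0.87 for genes that rose in controls and 0.98 for genes that fell. The interval lay within a 2-fold difference either way for 29.5% of the risen and 20.5% of the fallen genes, and for the others it reached beyond. Median differences, control minus depodded change, were 0.14 for risen and -0.12 for fallen genes. These genes were chosen by their control change, which is part of the difference, so the signs of both medians follow in part from the choice.

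The gene for which the changes differed was Glyma.05G218800. In control leaves it went from 266, 248 and 270 at day 45 to 106, 89 and 110 at day 54, without overlap (log2 change -1.36, SE 0.21, limma adjusted p 6e-05). In depodded leaves it went from 188, 150 and 202 to 269, 270 and 236, also without overlap but upward (log2 change 0.53, SE 0.21, adjusted p 0.051). The difference of the changes was -1.88 on the log2 scale (SE 0.29, 95% interval -2.49 to -1.27, adjusted p 0.047). This call was lost in 15 of 21 alternative fits, with adjusted p up to 0.26, and the difference lay between -1.97 and -1.76 in all of them.

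The genes with the largest log2 changes in depodded leaves, taken by the same rule, were also followed in controls. Glyma.06G174700 went from 2.29, 0 and 0 to 67.7, 68.7 and 62.9 in depodded leaves (log2 change 5.5, limma adjusted p 1.6e-05) and in controls from 3.94, 1.79 and 22.3 to 31.6, 27 and 26.6 (2.1, SE 0.78, adjusted p 0.048). Glyma.12G028300 went from 0, 0 and 5.12 to 83.9, 66.2 and 74.7 in depodded leaves (5.37, adjusted p 6.4e-07). Its control values were 19.7, 14.4 and 29 at day 45 and 54, 25.4 and 43.7 at day 54, which overlap (0.92, SE 0.57, adjusted p 0.24). For both genes the low depodded values lie under the floor.

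Glyma.05G186700 fell in depodded leaves from 688, 1070 and 1620 to 1.61, 0 and 3.93 (log2 change -8.82, limma adjusted p 1.4e-06). In controls it fell from 539, 610 and 64.7 to 46.5, 17.5 and 15.2, where day 45 replicate 3 was low (-3.52, SE 1, adjusted p 0.012). Glyma.14G176300 fell in both, in depodded leaves from 367, 5000 and 440 to 4.84, 0 and 3.93 (-8.25, adjusted p 6.3e-06) and in controls from 569, 357 and 725 to 3.72, 0 and 1.27 (-7.91, SE 1.07, adjusted p 1.7e-05). The value of 5000 comes from the depodded replicate of day 45 that stood apart, and without it the depodded change was -7.04, smaller than the control change. None of the differences between control and depodded change passed the threshold for these 4 genes. The genes were taken for their depodded change, so larger changes there follow in part from the choice.

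Set beside its neighbours in time, the step from day 45 to day 54 had more called genes than the steps before and after it. Between the initial group of day 38 and controls of day 45, 1690 genes (5.79%) were called, and between controls of days 54 and 64, 54 genes (0.185%). The first of these shares the day 45 libraries and the second the day 54 libraries with the main comparison, so only the counts are set side by side, and the difference between steps was not tested. Both counts depend on single libraries and on the fit. The earlier step gave 397 genes without initial replicate 1, 4471 without initial replicate 2, 540 and 544 without day 45 replicates 1 and 2, and 47 when only its 6 libraries were fitted. The later step gave 12, 8 and 221 genes without day 54 replicates 1, 2 and 3, 14 and 17 without day 64 replicates 1 and 3, 0 when only its libraries were fitted with limma (4038 at an unadjusted p under 0.05), and 548 with DESeq2. The main comparison gave 5560 to 6872 genes when 1 library was left out and 8165 when only its 6 libraries were fitted.

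A longer interval over controls that shares no library, day 64 against the initial group, had 12989 called genes (44.5%), of which 6152 (21.1%) were higher and 6837 (23.4%) lower. This comparison, too, takes the filter and each gene's spread from the same fit as the main one, so shared calls follow in part from that. The longer interval held 2474 (68.0%) of the genes that rose from day 45 to day 54 as rises and 21 as falls. Of the genes that fell it held 3390 (77.9%) as falls and 24 as rises. These are 40.2% and 49.6% of its own lists. The median log2 changes were 1.01 for the risen and -1.42 for the fallen genes, beside 1.17 and -1.44 over the 9 days. The values over the 9 days come from the comparison that chose the genes, which enlarges them, so the sizes are not directly comparable. Pearson's r across genes was 0.712 and Spearman's rho 0.703.

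The share of each library's counts held by these genes can be followed over all groups. In the 6 libraries compared, the risen genes held 6.21 to 7.03% at day 45 and 16.3 to 17.3% at day 54, and the fallen genes 25.1 to 28.5% and then 10.2 to 11.4%, as the choice of genes requires. In the initial group the risen genes held 5.54 to 5.9% and the fallen genes 29.1 to 31.6%. In controls of day 64 the shares were 15.6 to 17.5% and 10.9 to 12.1%, within or near those of day 54. By day 76 they were 12.6 to 13.5% and 16.3 to 17.5%, between those of days 45 and 54. Depodded leaves held 6.3 to 6.9% and 25.8 to 32.4% at day 45, and 14.3 to 14.9% and 15 to 19.3% at day 54. The depodded libraries of title number 4 held 14.7 to 15.5% and 16.8 to 18.7%. Those of title number 5 held 7.14 to 8.66% and 24.1 to 27%, near the values of day 45.

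The median levels of the same genes followed a similar, though not identical, course. Relative to each gene's mean log2 value over the 27 libraries, the median of the risen genes was -0.53 in the initial group, -0.58 ± 0.0346 at control day 45, 0.557 ± 0.0723 at day 54, 0.46 ± 0.05 at day 64 and -0.0867 ± 0.0379 at day 76 (means ± SD, n = 3 libraries). The median of the fallen genes was 0.79, 0.72 ± 0.101, -0.707 ± 0.0603, -0.643 ± 0.0404 and 0.143 ± 0.0404 in the same groups. In no library of day 76 did either median reach the range of day 45 or of day 54. In depodded leaves the medians of the risen genes were -0.483 at day 45 and 0.517 at day 54, and those of the fallen genes 0.703 and -0.563. For title numbers 4 and 5 the risen genes stood at 0.533 and -0.27 and the fallen genes at -0.55 and 0.337. By this measure title number 5 lay between days 45 and 54, while its shares of counts were near those of day 45.

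**Figure D5:**
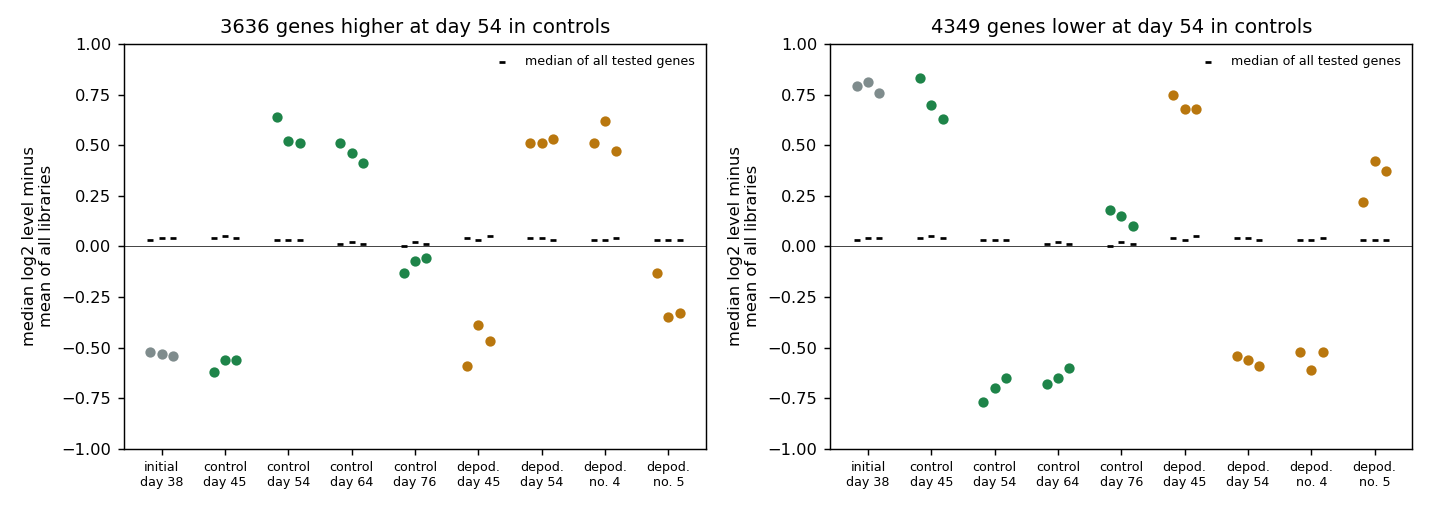
Each point is a library: the median, over genes that rose (left) or fell (right) in controls from day 45 to day 54, of the log2 level minus the gene's mean over all 27 libraries, with the median of all tested genes as a short black bar. Levels at days 45 and 54 in controls follow from the choice of genes. The other groups entered that choice only through the filter and the pooled spread of the fit. Day 76 lies between, at -0.0867 and 0.143 on average.

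In line T295H the control interval is longer, from day 35 to day 63, and its table was normalised separately. There 17743 of 29370 genes (60.4%) were called, 8612 (29.3%) higher and 9131 (31.1%) lower. Of the 3592 risen Williams 82 genes that were also tested in T295H, 1233 (34.3%) were higher and 920 (25.6%) lower, against 29.6% and 31.3% of all 27751 genes tested in both lines. Of 4041 fallen genes, 1537 (38.0%) were lower and 990 (24.5%) higher. These shares lie near the background of the T295H comparison. The shared rises and falls are 15% and 17.7% of the T295H lists. The median log2 changes in T295H were 0.17 for the risen and -0.22 for the fallen genes, and over the genes tested in both lines the changes had a Pearson's r of 0.202 and a Spearman's rho of 0.141. The days and their spacing differ between the lines, and that cannot be told apart from the line.

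The genes with the largest changes over that T295H interval did not pass the threshold between days 45 and 54 in Williams 82 controls. Glyma.07G056800, with a log2 change of 12.8 in T295H, held 3.94, 0 and 6.69 at day 45 and 0, 1.59 and 68.5 at day 54 in Williams 82, where replicate 3 alone was high (limma adjusted p 0.71). Glyma.11G144900, with 12.5 in T295H, had no count in these 6 libraries. Glyma.13G250400, with -10.87 in T295H, held 25.6, 113 and 420 and then 46.5, 25.4 and 92.6, with wide overlap (adjusted p 0.6). Glyma.18G258000, with -10.74 in T295H, held 701, 802 and 520 and then 218, 593 and 261 (log2 change -1.04, SE 0.79, adjusted p 0.35). In depodded leaves the last gene went from 638, 94.7 and 891 to 2710, 2140 and 1140, a log2 change of 2.31 (adjusted p 0.026). Over the longer Williams 82 control interval, day 64 against the initial group, some of these genes did pass, with the sign seen in T295H. They were Glyma.07G056800 (log2 change 5.01, limma adjusted p 0.0039), Glyma.13G250400 (-4.1, adjusted p 0.025) and Glyma.18G258000 (-2.26, adjusted p 0.024). Glyma.11G144900 had no count in either of those groups.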

How the data were processed

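RNA sequencing was done on 42 leaf libraries. The authors deposited 1 table per line, with a normalised signal for each gene and library; every column holds whole multiples of a step, as counts divided by a factor would. Bowtie2 and DESeq2 are named, without version or role, in the submitters' processing notes. Genome build, annotation, counting tool and strand use were not given in the sources used here. Genes that share reads with copies, overlap or lie antisense could not be recognised.

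In the 6 libraries compared, 100% of values divided by their step were whole to within 0.01, and 98.8 to 99.1% of those above 0 were even. Floors (6 counts, or 3 pairs) and 95% intervals use pairs of counts and cover counting error only. Control libraries of the same day differed by more than sampling noise (lowest chi-square per degree of freedom 6.78).

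All 27 Williams 82 libraries entered 1 limma 3.58.1 fit (trend, R 4.3.3) with 1 mean per group, two-sided, on log2(value + 1), which understates changes of low genes; the 15 of T295H entered another. Alternatives used edgeR 4.0.16 and DESeq2 1.42.0 on the recovered counts, TMM scaling, only the compared groups, a pseudocount of 5, a mean of at least 50 or no filter, a replicate block, and each library left out. The limma and edgeR fits of Williams 82, but not DESeq2, were run on simulated counts. There, large changes were set in a small share of the genes averaging 50 or more. That simulation does not cover small changes, lower genes or changes in many genes. Named genes are, per comparison, the 2 higher and 2 lower called genes with the largest log2 change whose higher group averages 50 or more, without overlapping libraries. The libraries, lists and tests were chosen with earlier results of these data known. The gene lists set by product name, leaf, seed, nodule, flower and pollen markers among them, could not be applied because no ID matched a name. The T295H table was matched by ID after removing a numbered ending.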

Additional observations from a re-analysis of the deposited data

Results flagged for a closer look

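The change from day 45 to day 54 differed between control and depodded leaves for Glyma.05G218800, by a test of the difference itself: control minus depodded change was -1.88 on the log2 scale (SE 0.29, limma adjusted p 0.047). The call was lost in 15 of 21 alternative fits, with adjusted p up to 0.26. All 3 control libraries of day 54 (106, 89 and 110) were below all of day 45 (266, 248 and 270), while all 3 depodded libraries of day 54 (269, 270 and 236) were above all of day 45 (188, 150 and 202).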

How the results depend on the processing

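Direction and size of the count held for days 45 and 54 in controls under each alternative: edgeR called 8220 genes (8612 on halved counts), DESeq2 9392, TMM scaling 8118, a pseudocount of 5 8349, a mean of at least 50 6680 of 19163, and no filter 7955 of 38177. With 1 library left out the counts were 5560 to 6872 here, 8486 to 9769 in depodded leaves, 10626 to 12805 for day 64 against the initial group and 16034 to 16649 in T295H. Shared rises and falls with depodded leaves were then 1678 to 2229 and 2351 to 2961, and with T295H 865 to 1144 and 1177 to 1504. Counts of the neighbouring steps moved. Day 45 against the initial group gave 397 to 4471 with 1 library left out and 47 with only its groups fitted; its split of 873 higher and 817 lower became 1047 and 644 under TMM scaling and 973 and 1513 with DESeq2. Day 64 against day 54 gave 8 to 221 with 1 library left out, 0 with only its groups fitted (4038 at an unadjusted p under 0.05) and 548 with DESeq2. The difference between control and depodded change gave 193 genes with DESeq2 and 0 with only the compared groups (4052 at an unadjusted p under 0.05), a pseudocount of 5 (3768), no filter (4336) or the replicate block (3574). With 1 library left out it gave 0 to 4, the 4 without depodded day 45 replicate 3. The cause was not tested. In the comparison each was chosen in, none of the named genes changed direction under the alternatives it was tested in, and only Glyma.05G218800 lost its call; Glyma.06G174700 and Glyma.12G028300 fall below a mean of 50 and have no value there. TMM scaling moved the median change of all genes from 0.02 to 0.05 for days 45 and 54.

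Control libraries of days 45 and 54 share replicate numbers, and deviations from the group means correlated by -0.07, -0.01 and 0 between same numbers. No shared effect of the number was seen there, but 3 libraries per day cannot show whether the numbers pair the samples. Between control and depodded leaves, same numbers correlated by -0.1, -0.18 and -0.19 at day 45 and by 0.04, 0.08 and 0.25 at day 54. With the replicate number as a block 7863 genes were called between days 45 and 54 in controls, 7663 of them shared with the main fit.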

Other observations

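Called genes were spread over the genome as far as the number in the gene ID shows it. By that number, the share called between days 45 and 54 in controls ran from 24.7% (number 10) to 29.9% (number 12) over 20 numbers, around the 27.3% of all tested genes. Genes with consecutive IDs (16525 pairs with both tested) were both called in 1276 pairs. With 27.3% of all genes called, many such pairs arise without any link between neighbours, and this count is not a result about them. Of the 1276 pairs, 756 (59.2%) went the same way, 317 both higher and 439 both lower. The overall shares of rises and falls would give 50.4%. The longest runs of consecutive IDs called in 1 direction held 4 genes, with 4 such runs higher and 4 lower. The runs with the largest changes were 1 with the number 13, from -6.17 to -3.2 on the log2 scale, and 1 with the number 17, from 3.44 to 4.44. Others held small changes, such as -2.83 to -0.58 (number 20) and 0.95 to 1.39 (a second run with the number 17). How many such runs the overall shares would give was not computed. Whether neighbours share reads through near-identical sequence was not tested.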
